A study of Mus musculus with 8 samples.

Results

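Solute carriers are membrane proteins that move amino acids, sugars, ions, vitamins and metabolites across the plasma membrane and the membranes of organelles. Their genes are named by family number, and members of a family share sequence and often substrates. Most are made at the endoplasmic reticulum (ER), and several work there, in the Golgi or in the inner membrane of mitochondria. In neuronal cells they also take up transmitters and their precursors. The genes described here are those whose symbol starts with Slc. Left out by name were Slc2a1, Slc2a3, Slc16a1, Slc16a3, Slc7a11, Slc3a2 and Slc48a1, genes of glucose, lactate, cystine or heme transport. Other genes of lactate or cystine transport, such as Slc5a12 and Slc3a1, were kept. By this rule, 35 of the 2395 transcript clusters of the deposited table were taken, from 18 families and 17 chromosomes.

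Cells of the mouse neuroblastoma line neuro2a (N2a) were transfected with an empty vector (4 arrays) or with vectors that express an artificial microRNA against Grp94 (4 arrays), and their RNA was measured. Grp94, encoded by Hsp90b1, is a chaperone of the ER. The study used more than 1 construct against Grp94 and also a non-targeting control vector, and the labels do not give the construct of each array. Sorting of transfected N2a cells was not described, so cells without vector may be included. In bulk RNA, fewer cells that use a gene and less RNA per cell cannot be told apart.

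The table gives 1 log2 mean per group and transcript cluster, centred by the authors so that no level is kept. A value near 0.2 in one group and -0.2 in the other therefore says only that the groups lay that far apart. Single arrays have no values in this table of group means, and the differences below carry no standard error, and 8 arrays limit their precision. All 2395 rows had been kept by the authors for an adjusted p of at most 0.01, so that a listed gene differs by selection, and a gene that is not listed has no value. The target gene was checked first. Hsp90b1 had a mean of 0.74 with the empty vector and -0.78 with the knockdown, a 2.87-fold lower value. Of 16 marker genes of sympathetic neuroblasts, 5 were listed (Stmn2, Th, Isl1, Hand2 and Dbh), 2 lower and 3 higher, with Dbh at 0.49, and since levels are not kept the cell type could not be checked by them.

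Among the 35 solute carriers, 24 (68.6%) had a lower and 11 a higher mean with the knockdown, where 59.9% of all rows of the table were lower. The median difference (knockdown minus empty vector, log2) was -0.21 for the solute carriers and -0.16 for all rows. A 1.3-fold difference was passed downwards by 6 solute carriers (17.1%, against 16.1% of all rows), namely Slc7a3, Slc6a9, Slc37a4, Slc39a8, Slc35a2 and Slc1a5. It was passed upwards by 2 solute carriers (5.71%, against 6.26% of all rows), namely Slc5a12 and Slc20a2. These shares lay near those of the whole table, and the group was not tested against other genes. The authors' zero point is kept below. Re-centring on the median of all rows adds 0.16 to every value, so fewer lower and more higher rows follow by construction. Past 1.3-fold it left 1 solute carrier lower (2.86%, against 6.64% of all rows) and 8 higher (22.9%, against 22% of all rows). The median of listed rows is no estimate of the true zero, so the number in each direction depends on a point that the table does not fix.

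**Figure D1:**
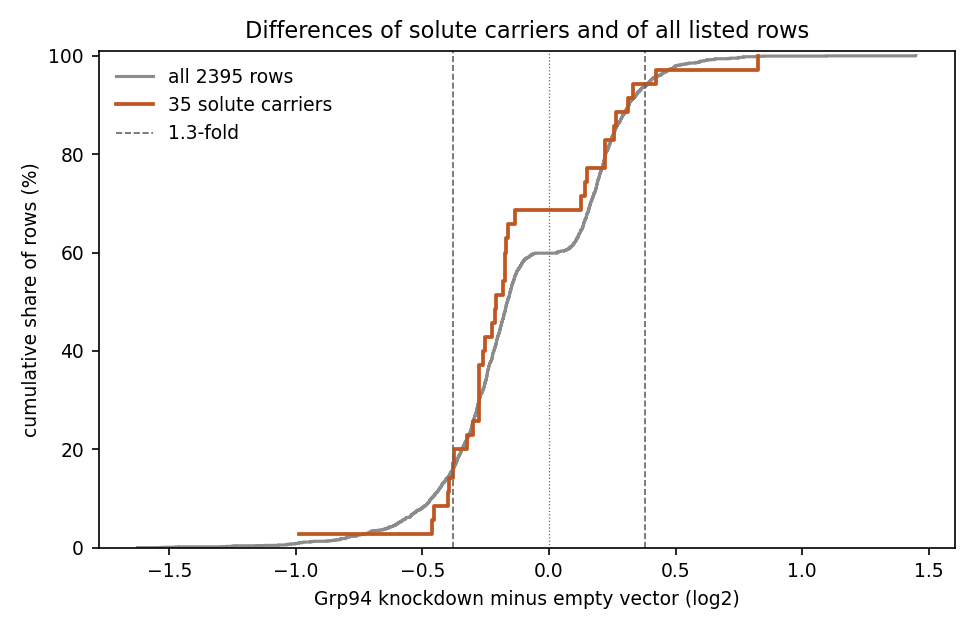
Cumulative share of rows (vertical axis, percent) by the log2 difference of the authors' means, Grp94 knockdown minus empty vector (horizontal axis), for the 35 solute carriers and for all 2395 rows. Dashed lines mark a 1.3-fold difference, past which 6 solute carriers lie to the left and 2 to the right, while Slc7a3 (-0.99) and Slc5a12 (0.82) are the outermost steps.

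Positions given below are those of the table, whose genome build is not given in the sources used here. Each transcript cluster was read by 24 to 47 probes along the gene (median 33, against 30 for all rows). Slc1a5 (1.302-fold) lay just past the 1.3-fold difference and Slc25a16 (1.297-fold) just under it.

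Carriers of amino acids made up the largest group, with 10 rows, of which 8 were lower, 2 were higher and 3 passed a 1.3-fold difference, all lower. Of all rows, 59.9% were lower and 16.1% were lower past 1.3-fold, and a group of 10 rows was not tested against them. The median difference of the amino acid carriers was -0.24, against -0.16 for all rows, and -0.079 when re-centred. Slc7a3, which takes up the cationic amino acids arginine and lysine and is found in neurons, had the lowest difference of all 35 solute carriers. Its mean was 0.49 with the empty vector and -0.50 with the knockdown, a difference of -0.99 or 1.99-fold (transcript cluster 10605986, minus strand of chromosome X, 98274543 to 98280713, 24 probes). The other cationic carrier listed, Slc7a1, went from 0.14 to -0.16, a difference of -0.30. Slc7a5, the carrier of leucine and other large neutral amino acids, went from 0.13 to -0.08 and differed by -0.21. Thus the 3 members of family 7 taken by the rule were all lower, with Slc7a3 well below Slc7a1 and Slc7a5. A further listed row of this family, Slc7a11, was left out by name and was lower than Slc7a3 (-1.30).

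Slc6a9, the glycine transporter that clears glycine from synapses, had a mean of 0.23 with the empty vector and -0.23 with the knockdown, 1.38-fold lower (transcript cluster 10507500, plus strand of chromosome 4, 117507111 to 117541910). Its probes are shared with Ccdc24, so the value cannot be assigned to the transporter alone. Slc1a5, which exchanges glutamine and other neutral amino acids, went from 0.18 to -0.20, a difference of -0.38 (transcript cluster 10550332, plus strand of chromosome 7, 17366695 to 17383623). Slc1a4, its relative for alanine, serine and cysteine, differed by -0.28. Slc38a2, a sodium-coupled carrier of glutamine and alanine, differed by -0.17. Slc3a1, the partner subunit of a carrier of cystine and dibasic amino acids, shared its probes with Prepl, and this transcript cluster differed by -0.17.

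Slc36a1 and Slc6a8 were the amino acid group's higher rows. Slc36a1, a proton-coupled carrier that exports small amino acids from lysosomes, went from -0.13 to 0.18 and differed by 0.31. Slc6a8, which takes up creatine, an amino acid derivative, differed by 0.22. So family 6 held 1 lower and 1 higher row.

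**Figure D2:**
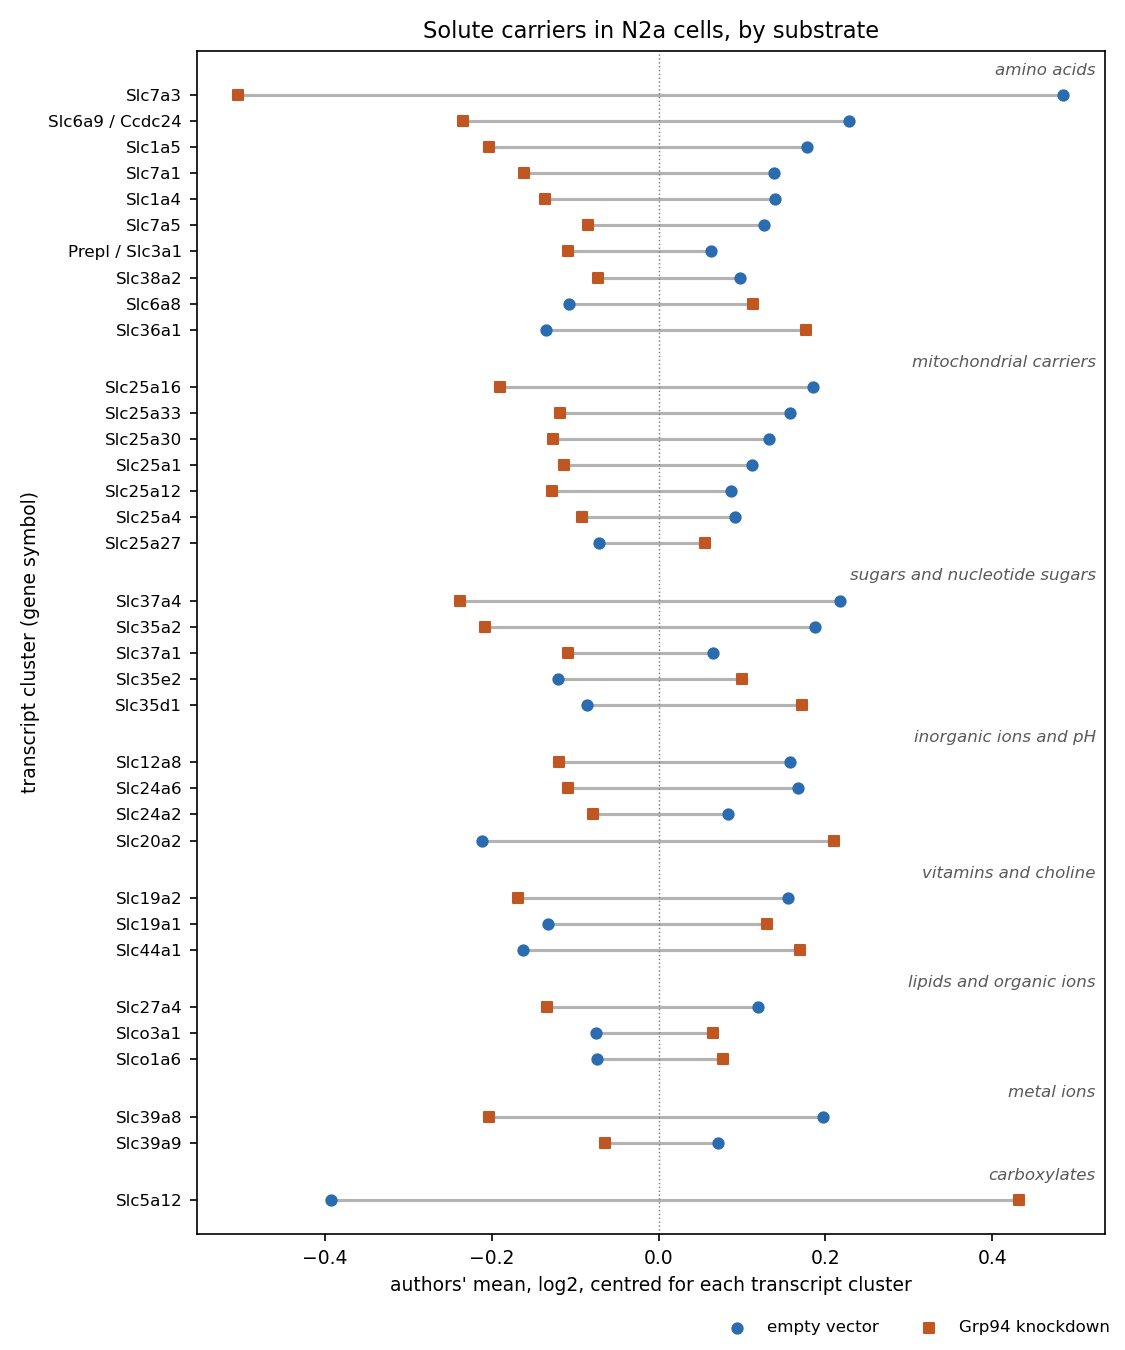
Authors' centred log2 mean (horizontal axis) of each of the 35 solute carriers (vertical axis, grouped by substrate) with the empty vector (circles) and with Grp94 knockdown (squares), joined by a line whose length is the difference; no error was computed from these group means. The longest lines are those of Slc7a3, where the knockdown is lower (-0.50 against 0.49), and Slc5a12, where it is higher (0.43 against -0.39).

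Mitochondrial carriers of family 25, which exchange metabolites and nucleotides across the inner membrane, had 7 rows, of which 6 were lower and 1 was higher. Of all rows, 59.9% were lower, and these 7 rows were not tested against them. None of the 7 passed a 1.3-fold difference. Their median was -0.22, against -0.16 for all rows, and -0.060 when re-centred. Slc25a16, linked to the supply of coenzyme A to the matrix, came nearest with means of 0.19 and -0.19 and a difference of -0.38. The pyrimidine nucleotide carrier Slc25a33 differed by -0.28 and Slc25a30, which carries inorganic anions such as sulfate, by -0.26. The citrate carrier Slc25a1 (-0.22), the aspartate and glutamate carrier Slc25a12 (-0.21) and the ADP and ATP exchanger Slc25a4 (-0.18) lay close together. Slc25a27, an uncoupling protein of neurons, was the row of this family that was higher, with a difference of 0.13, the smallest among all 35.

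Sugar phosphate and nucleotide sugar carriers, which work in the ER and the Golgi, had 5 rows with 3 lower, 2 higher and a median of -0.17. Over the whole table, 59.9% of rows were lower, 16.1% were lower past 1.3-fold and the median was -0.16. These 5 rows were not tested against it. Slc37a4 moves glucose 6-phosphate into the ER, where glucose is released from it. Its mean was 0.22 with the empty vector and -0.24 with the knockdown, 1.37-fold lower (transcript cluster 10584741, plus strand of chromosome 9, 44206259 to 44211051). The related Slc37a1, also a glucose 6-phosphate carrier of the ER, differed by -0.17. Slc35a2 carries UDP-galactose into the Golgi for the building of glycans. It went from 0.19 to -0.21, 1.32-fold lower (transcript cluster 10598474, plus strand of chromosome X, 7461370 to 7471531). The other listed rows of family 35 were higher, Slc35d1, which supplies UDP-glucuronic acid to the ER, by 0.26 and Slc35e2, whose substrate is not settled, by 0.22.

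Metal ion carriers were represented by Slc39a8 and Slc39a9 of the zinc importer family. Slc39a8, which takes up zinc and manganese, had means of 0.20 and -0.20, 1.32-fold lower (transcript cluster 10496324, plus strand of chromosome 3, 135488455 to 135551356). Slc39a9 differed by -0.14 and turned to 0.03 when re-centred, so its direction rests on the zero point.

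For inorganic ions, 3 rows were lower and 1 was higher, a split that was not tested. Among all rows, 59.9% were lower and 6.26% were higher past 1.3-fold. Slc20a2, a sodium-coupled phosphate importer, went from -0.21 to 0.21 and was 1.34-fold higher (transcript cluster 10570837, plus strand of chromosome 8, 23587260 to 23680084). Slc24a6, now named Slc8b1, extrudes calcium from mitochondria in exchange for sodium and differed by -0.27. Slc12a8, of the cation and chloride cotransporter family, differed by -0.28. Slc24a2, a potassium-dependent exchanger of sodium and calcium in neurons, differed by -0.16 and was at 0.00 when re-centred.

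Slc5a12 had the highest difference of the solute carriers. It is a sodium-coupled carrier of lactate and other monocarboxylates, known mainly from kidney and intestine. Its mean was -0.39 with the empty vector and 0.43 with the knockdown, 1.77-fold higher (transcript cluster 10474450, plus strand of chromosome 2, 110437455 to 110487944, 32 probes).

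Of the carriers of vitamins and choline, 1 was lower and 2 were higher, with no difference past 1.3-fold. The whole table had 59.9% of its rows lower, and so few rows were not tested against it. Within family 19 the directions were opposite. Slc19a2, the thiamine carrier, went from 0.16 to -0.17, a difference of -0.32, while Slc19a1, the folate carrier, went from -0.13 to 0.13, a difference of 0.26. Slc44a1, a choline transporter, differed by 0.33. Both directions were also present in families 6, 25 and 35. In this count, 4 of the 10 families with at least 2 of the 35 rows were mixed. Families were taken from the listed symbols, and left-out carriers were not counted. No expected number of mixed families was computed, so the count says nothing particular about families.

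Of the lipid and organic ion carriers, 1 was lower and 2 were higher, none past 1.3-fold. This split was not tested against all rows, of which 59.9% were lower. Slc27a4, which takes up long-chain fatty acids and activates them, differed by -0.25. Slco3a1 differed by 0.14 and Slco1a6 by 0.15, both of them organic anion transporters. Slco1a6 belongs to a cluster of close copies, so its probes may also read its neighbours.

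The carriers left out of the rule were set beside these values. Of the 7, 5 were listed and all were lower, where 59.9% of all rows were lower and 16.1% were lower past 1.3-fold. Their differences were -1.30 for Slc7a11, -0.82 for Slc2a1, -0.82 for Slc16a3, -0.60 for Slc2a3 and -0.20 for Slc3a2. The 7 were set apart by name with earlier results of these data known, so their contrast with the 35 is no independent finding. Of the 35 solute carriers described here, Slc7a3 alone had a difference below that of Slc2a1. Slc3a2 is the partner subunit of both Slc7a5 (-0.21) and Slc7a11 (-1.30).

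Transporters of other kinds were compared next, in groups of only 2 to 5 rows that were not tested. Of all rows, 59.9% were lower, 16.1% were lower past 1.3-fold and 6.26% were higher past 1.3-fold. Of the ABC transporters, which use ATP to export substrates, all 5 listed rows were lower and none passed a 1.3-fold difference (Abcb10 -0.31, Abcc1 -0.24, Abcb8 -0.22, Abcb6 -0.15 and Abcd4 -0.14). Of the P-type ATPases considered, pumps for ions and lipids, 3 were lower and 2 were higher. Past 1.3-fold among them were Atp2b4, a calcium pump of the plasma membrane (-0.46), and Atp2a3, a calcium pump of the ER (-0.43). The more widespread calcium pump of the ER, Atp2a2, differed by 0.10. Atp11b differed by -0.36 and Atp13a1 by 0.19. The V-type ATPase, which acidifies lysosomes, was represented by the subunit gene Atp6v1f alone, listed as 2 rows. They differed by 0.48 on chromosome 6 (29417783 to 29420512) and by 0.46 on a shorter stretch of chromosome 17 (74728873 to 74729228). Whether both rows read the same RNA was not tested, so they may not be separate values. Of the solute carriers with other names, 4 rows were lower and 1 was higher. Past 1.3-fold were Sfxn3, of the mitochondrial sideroflexins (-0.43), and Sv2a, a synaptic vesicle protein (-0.39). Cln3 was at -0.28, Sfxn1 at -0.13 and Ctns, the lysosomal exporter of cystine, at 0.21. The Cln3 row is shared with 2 further predicted loci.

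**Figure D3:**
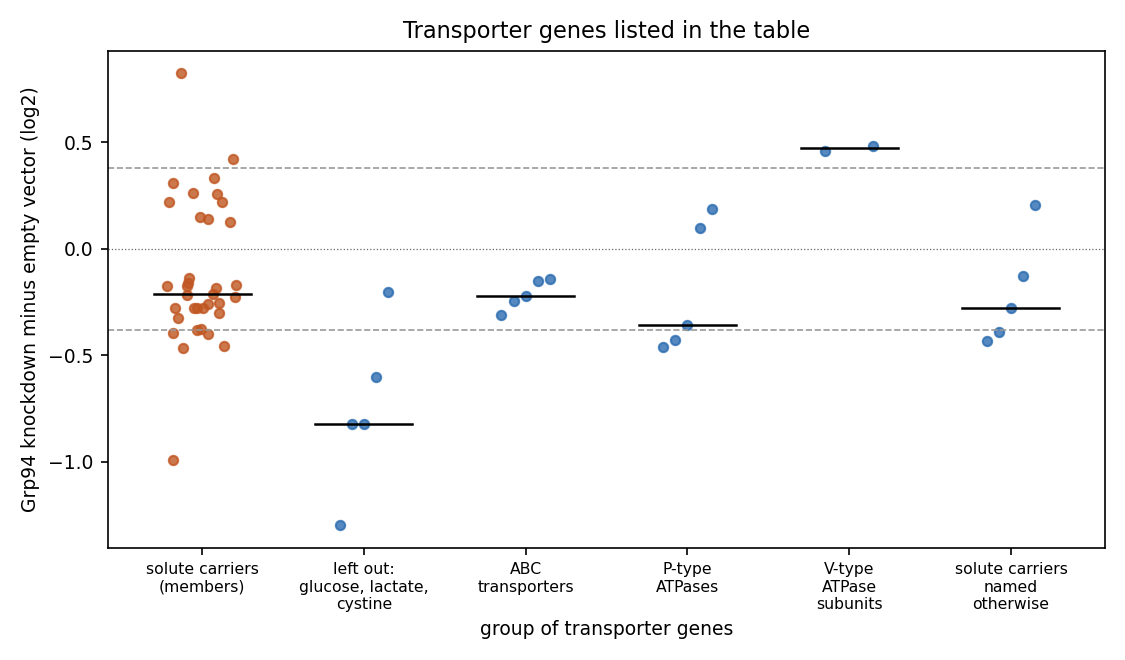
Log2 difference of the authors' means (vertical axis, Grp94 knockdown minus empty vector) for each listed row of 6 groups of transporter genes (horizontal axis), with a black line at the median of each group and dashed lines at a 1.3-fold difference. Solute carriers spread from -0.99 to 0.82 around a median of -0.21, and the 5 left-out carriers lie from -1.30 to -0.20.

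The study concerns the factor NF-Y, which binds CCAAT motifs near start sites, so promoters of the solute carriers were searched for CCAAT. TGATGNAA, a form of the element bound by ATF4 and C/EBP factors, and ACGTG, the core bound by hypoxia-inducible factors, were searched for as well. Each was searched on both strands of the RefSeq promoters of GRCm38.p6, from 250 bases before to 50 after the start site. Promoters were matched for 25 of the 35 solute carriers. The genes with no match were Slc7a3, Slc1a5, Slc24a6, Slc7a5, Slc25a27, Slco3a1, Slc6a8, Slc35e2, Slc20a2 and Slc5a12. Of the 36 promoters of the 25 matched genes, 10 (27.8%) held CCAAT, against 37.4% of all 32851 promoters. For ACGTG the count was 6 (16.7%, against 19.6% of all) and for TGATGNAA it was 1 (2.78%, against 3.97% of all). The shares among the matched solute carriers were thus no higher than those of promoters at large. Slc7a3, Slc1a5, Slc20a2 and Slc5a12, all past 1.3-fold, are among the genes that could not be searched.

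Of the 6 lower mitochondrial carriers, a subset chosen after the values were seen, 4 had a promoter with CCAAT, 3 with ACGTG and 0 with TGATGNAA. Of all promoters, 37.4% hold CCAAT, 19.6% ACGTG and 3.97% TGATGNAA. One CCAAT match of each of the 4 is printed to show the motif in its context, and that of Slc1a4 shows the TGATGNAA match, chosen after the values were seen. Each line gives 30 bases, 5′ to 3′ on the strand of the gene in GRCm38.p6, with the motif in capitals (ATTGG and TTGCATCA are the reverse strand's reading). In Slc25a30, ACGTG follows CCAAT, as part of the bases printed in lower case. A match describes the letters and not binding.
Slc25a33 (chr4:149774332-149774361, minus strand): atccacctgccgtCCAATaggcgtacggga
Slc25a30 (chr14:75787073-75787102, minus strand): gtgtcgacagtgaCCAATgagaacgtggtg
Slc25a1 (chr16:17928328-17928357, minus strand): tccagcaccggccATTGGctgctctcagct
Slc25a4 (chr8:46211102-46211131, minus strand): gggaccagcccagCCAATgcgcgctgcgcg
Slc1a4 (chr11:20332699-20332728, minus strand): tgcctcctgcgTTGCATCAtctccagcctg

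The promoters of the most lowered solute carriers with an entry and a sole symbol, Slc37a4 and Slc39a8, are given as the 250 bases before their outermost start site. Neither stretch held any of the 3 motifs, so no letters are in capitals. A second start site of Slc39a8 had ACGTG within the 250 bases before it.
Slc37a4 (chr9:44396696-44396945, plus strand): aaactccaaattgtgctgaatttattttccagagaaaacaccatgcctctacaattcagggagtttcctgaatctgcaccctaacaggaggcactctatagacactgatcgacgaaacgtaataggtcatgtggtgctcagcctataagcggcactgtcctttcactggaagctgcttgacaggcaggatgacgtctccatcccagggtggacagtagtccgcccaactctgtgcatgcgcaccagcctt
Slc39a8 (chr3:135825029-135825278, plus strand): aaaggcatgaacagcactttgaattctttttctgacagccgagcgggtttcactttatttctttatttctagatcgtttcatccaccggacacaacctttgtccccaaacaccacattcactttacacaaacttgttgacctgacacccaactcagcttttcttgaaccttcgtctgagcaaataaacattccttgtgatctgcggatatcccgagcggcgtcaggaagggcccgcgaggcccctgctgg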

How the data were processed

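The authors measured RNA of N2a cells on Affymetrix Mouse Gene 1.0 ST arrays, with GeneSpring GX for analysis, with genes under percentile 20 of expression excluded. The authors deposited 1 centred log2 mean per group and transcript cluster, and only rows with an adjusted p-value of at most 0.01. The authors' columns of p-values, fold changes and direction hold their own comparison, and were used only to find that limit. The summary of probes and the normalization are not given in the sources used here.

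Rows with any symbol starting with Slc were taken from the table, and the difference of the deposited log2 means, knockdown minus empty vector, was computed here. Since no value per array was used, no test was run. A fold of 1.3 served to count sizes. Substrate groups follow family numbers, with a few genes assigned by symbol. Members and lists were chosen with earlier results of these data known. All members are named, with both means for those past 1.3-fold, and other transporters by their differences. One further gene is not reported here. Motifs were counted in RefSeq promoters. Counting was tested on simulated data. Python 3.11.15, pandas 2.3.3, numpy 2.4.6 and matplotlib 3.10.9 were used.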

Additional observations from a re-analysis of the deposited data

How the results depend on the processing

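Counting only rows with a sole symbol, 1 row per symbol or rows past 1.1-fold kept the counts of 24 lower and 11 higher within 1.5 times, and no scaffold protein was among the members. The count past a fold follows the fold chosen, against 6 lower and 2 higher at 1.3-fold. It was 13 lower and 5 higher at 1.2-fold, 1 lower and 1 higher at 1.5-fold, and 0 lower and 0 higher at 2-fold. Shares of all rows at these other folds were not computed, so these counts cannot be set against the whole table. Including the left-out carriers gave 10 of 40 rows lower past 1.3-fold and 2 higher, where 16.1% and 6.26% of all rows passed it. The nearness of the shares to those of the whole table thus holds for the 35 rows of the rule, and the larger set was not tested. Re-centring on the median of all rows gave 1 lower and 8 higher past 1.3-fold and a median of -0.046 in place of -0.21. It turned Slc24a2 to 0.0037 and Slc39a9 to 0.029, while the other 33 kept their direction. The true zero point is not known from listed rows alone. No paired analysis was possible because the only values used here are 1 mean per group, and for the same reason no replicate was left out. Values of the 8 single arrays were not analysed here.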
